A study of Mus musculus with 9 samples.

Results

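The genes described here write, maintain, read and remove DNA methylation in mouse embryo fibroblasts (MEFs). They are Uhrf1, Dnmt1, Hells, Dnmt3a, Dnmt3b, Tet1, Tet2, Tet3 and Mbd2, and every probe-set with one of these 9 symbols was taken, 24 probe-sets of the 45101 on the array. The probe-sets with symbols cover 18194 genes in all. Primary MEFs from 13.5 day embryos of a mixed C57BL/6J x 129Sv/J background were grown without treatment in medium with 10% serum and re-seeded every 3 days, the 3T3 protocol. Arrays of 3 groups were compared, with 3 cultures in each: wild type at passage 3 (P3), wild type at passage 5 (P5) and Tgif1 -/- at P3, here called the null. The null lacks Tgif1 in every cell of the embryo, was not sampled at P5 on the arrays used here, and whether P3 and P5 cultures came from the same embryos is not given in the sources used here. Values are log2 signals, and a difference of 1 is a 2-fold change in signal. Each array had its floor at 2.23, and 15 of the 24 probe-sets had a mean above 4.

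When DNA is replicated, the new strand carries no methyl groups. Uhrf1 binds the half-methylated CpG sites and recruits Dnmt1, the maintenance methyltransferase, which copies the mark, while Hells is a chromatin remodeller that opens nucleosomal DNA to methylation. Dnmt3a and Dnmt3b place methyl groups de novo, the Tet enzymes oxidise them as a step in their removal, and Mbd2 reads methylated CpG as part of the NuRD repressor complex. Uhrf1 and Dnmt1 are mostly made in dividing cells, so the genes of DNA replication are described beside them.

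Between P3 and P5, the maintenance genes fell. Uhrf1 and Dnmt1 lost about 1 log2 unit, and Hells fell in the probe-set that passed the test. In the null at P3, the mean signals of these genes lay between those of the wild type passages. Uhrf1 lay midway, Dnmt1 nearer to P3, and Hells near P5. Differences between the genes were not tested, and the calls of the null against P3 depended on the fit. Averaged over its probe-sets, Uhrf1 in the null passed against neither passage. Dnmt3b and the Tet genes gave no call, and most of their probe-sets were dim. Dnmt3a was called in 1 probe-set, lower at P5 than at P3 and than in the null. Mbd2 was read differently by its 2 probe-sets.

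Because Uhrf1, Dnmt1 and Hells were low together at P5, their promoters are shown for the words that E2F factors, the regulators of S phase genes, are known to bind. The windows are from RefSeq (GRCm38.p6), 250 bases before to 50 bases after an annotated start, 5′ to 3′ on the gene's strand. The words searched were TTTCCCGC, TTTCGCGC, TTTGCCGC and TTTGGCGC on both strands, matches are in capitals, and matches may overlap one another. Uhrf1 is at chr17:56304063-56304362 on the + strand, Dnmt1 at chr9:20952574-20952873 on the - strand and Hells at chr19:38930740-38931039 on the + strand.
Uhrf1: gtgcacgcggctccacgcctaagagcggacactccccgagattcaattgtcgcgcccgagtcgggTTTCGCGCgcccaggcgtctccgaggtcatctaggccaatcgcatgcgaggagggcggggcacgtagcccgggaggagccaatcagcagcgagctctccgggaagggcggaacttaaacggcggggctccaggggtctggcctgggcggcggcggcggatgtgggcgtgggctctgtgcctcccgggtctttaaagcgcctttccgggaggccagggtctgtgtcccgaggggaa
Dnmt1: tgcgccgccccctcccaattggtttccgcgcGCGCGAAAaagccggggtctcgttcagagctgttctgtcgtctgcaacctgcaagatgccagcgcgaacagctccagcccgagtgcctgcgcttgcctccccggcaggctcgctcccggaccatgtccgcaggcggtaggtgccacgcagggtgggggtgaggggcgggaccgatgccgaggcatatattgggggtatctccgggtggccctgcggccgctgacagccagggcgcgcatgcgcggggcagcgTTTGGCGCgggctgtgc
Hells: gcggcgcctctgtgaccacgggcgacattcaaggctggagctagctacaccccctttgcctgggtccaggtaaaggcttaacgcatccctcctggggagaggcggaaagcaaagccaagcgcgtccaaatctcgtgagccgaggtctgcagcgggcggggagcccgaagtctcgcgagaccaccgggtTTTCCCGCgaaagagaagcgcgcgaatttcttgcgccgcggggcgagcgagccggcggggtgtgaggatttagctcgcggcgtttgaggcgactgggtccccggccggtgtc
In the Uhrf1 window the word begins 185 bases before the start, in Hells 62 bases before it, and in Dnmt1 one word begins 219 bases before the start and another 33 bases after it. The other RefSeq starts of Uhrf1 (1 window) and Dnmt1 (2 windows) held none of these words, nor did the windows of Dnmt3a, Dnmt3b, Tet1, Tet2 and Tet3. Thus 3 of 13 windows, or 3 of 8 genes, held a word, and the Mbd2 window was not used. Over all RefSeq windows of this length the share was 2.26% (744 of 32851), and over genes on the arrays 3.81% (550 of 14453). Over the S phase genes described below it was 40.0% (10 of 25), and over the mitosis genes described there 6.25% (1 of 16). Each word holds a CG, and the median count of CG per window was 7 over all windows. It was 16 for genes on the arrays and 30 for the members, so these shares are not matched for CG. A match of letters is a description of the window and not a binding site.

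The labels were checked first with Tgif1 itself. Its log2 signal was 2.48, 3.21 and 2.50 in the null, 9.82, 9.95 and 9.72 at P3, and 10.06, 10.07 and 10.18 at P5. The null arrays were thus near background and the wild type arrays were not, but the position of this probe-set against the deletion is unknown here. Replicate arrays correlated at 0.996 to 0.999 across probe-sets, and the array medians of probe-sets above 4 lay from -0.02 to 0.04 around their common level. Of 12 fibroblast markers, between 11 and 12 per array had a signal above 4, with Col1a1, Col1a2, Vim and Fn1 among the high ones.

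Each comparison was tested with limma on the 3 group means over all 9 arrays, with the Benjamini-Hochberg adjustment over all 45101 probe-sets, and a probe-set is called at an adjusted p under 0.05. An exact permutation test of 3 arrays against 3 cannot give a p below 0.1. Between P5 and P3, 6 of the 24 member probe-sets fell and 1 rose, where 4.33% of all probe-sets fell and 4.29% rose. Those that fell belong to Uhrf1, Dnmt1, Hells and Dnmt3a, and the one that rose to Mbd2. Among all probe-sets with a mean above 4, 10.4% fell, beside the 6 of 15 members above that level. Of the 24 probe-sets, 12 had all P5 arrays below all P3 arrays, where this held for 10.9% of all probe-sets. Hells 1453361_at, near the floor, is 1 of the 12. Among probe-sets with a mean above 4, this separation held for 10 of 15 members beside 4546 of 18225 over the array. The rates in all probe-sets are given because a share near them would say nothing particular about these genes.

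**Figure D1:**
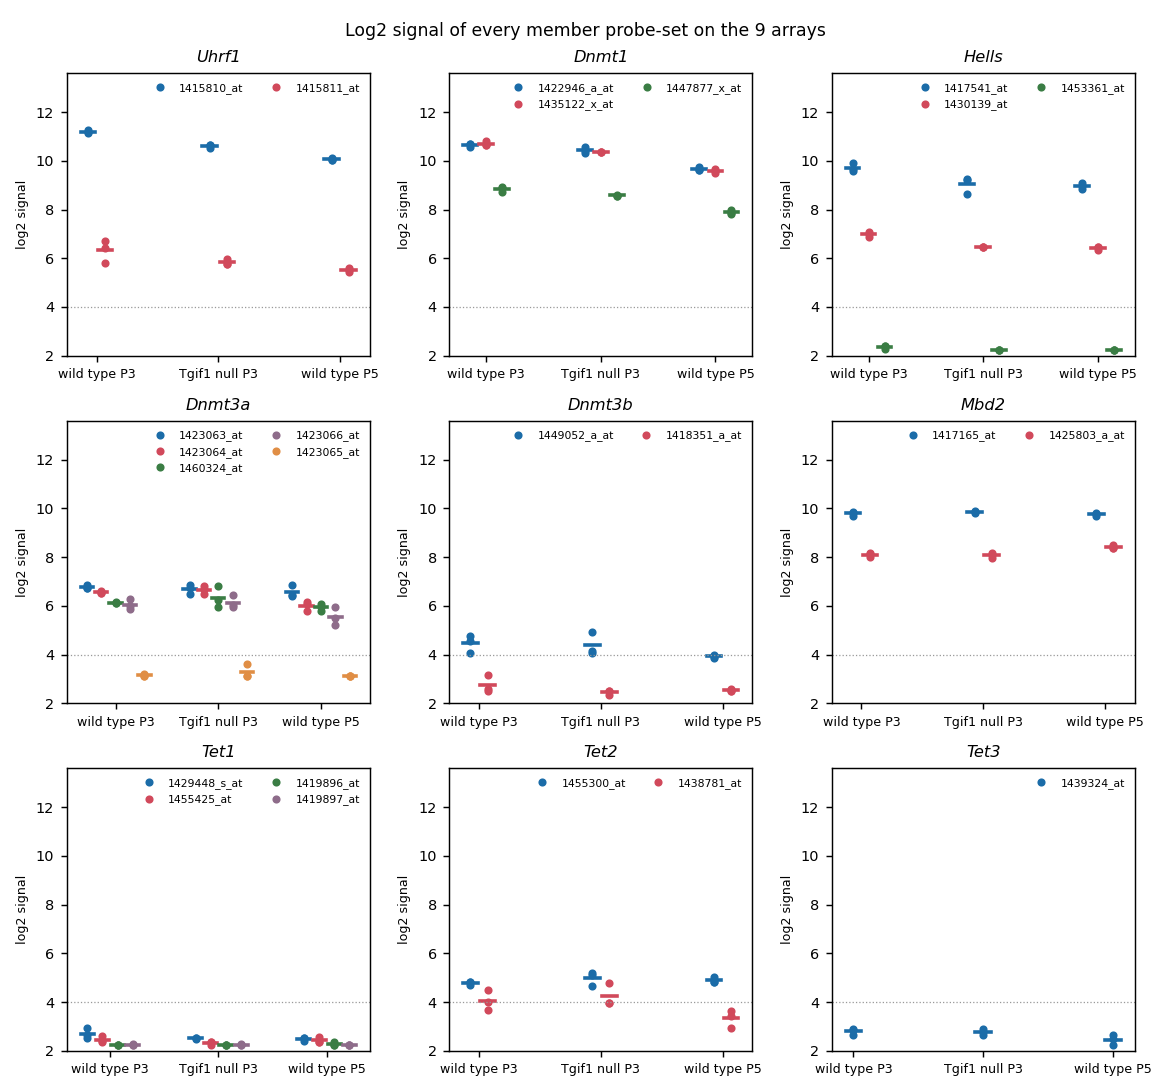
Log2 signal (y axis) of all 24 probe-sets of the 9 genes on the 9 arrays, by group (x axis). Each point is 1 array, colours mark probe-sets, bars are the means of 3 arrays, and the dotted line is a signal of 4. Uhrf1, Dnmt1 and Hells step down from P3 to P5, whereas the Tet genes and Dnmt3b lie near or below the line in all groups.

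For Uhrf1, the reader of half-methylated CpG, probe-set 1415810_at had a log2 signal of 11.26, 11.15 and 11.20 at P3, 10.67, 10.66 and 10.53 in the null, and 10.13, 10.06 and 10.05 at P5. The 3 groups did not overlap, and the null arrays lay between the others. From P3 to P5 the signal fell by 1.12 (SE 0.05, adjusted p = 0.000237), a 2.18-fold loss. In the null it fell by 0.58 relative to P3 (SE 0.05, adjusted p = 0.00707), a 1.5-fold loss. The null was also above P5 by 0.54 (SE 0.05, adjusted p = 0.00226). By this probe-set the level in the null therefore differed from both wild type passages. The call between the null and P3 was lost when only the 6 arrays of these groups were fitted (adjusted p = 0.0607) and when the prior spread was made to vary with signal (adjusted p = 0.117), and held without each array in turn.

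The other Uhrf1 probe-set, 1415811_at, was read at 6.44, 6.72 and 5.81 at P3, 5.97, 5.77 and 5.77 in the null, and 5.61, 5.50 and 5.43 at P5. All P5 arrays again lay lowest, but P3 replicate 3 lay among the null arrays. Neither the difference of P5 from P3 (-0.81, SE 0.22, adjusted p = 0.0908) nor that of the null (-0.48, SE 0.22, adjusted p = 0.584) passed the test. Without P3 replicate 3, the former was -1.06 (adjusted p = 0.0113). Averaged over both probe-sets, Uhrf1 fell by 0.97 at P5 (SE 0.12, adjusted p = 0.00335 over gene means), but the null then differed from P3 by -0.53 (adjusted p = 0.0653) and from P5 by 0.43 (adjusted p = 0.0586), and neither passed.

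Dnmt1, the enzyme that copies methylation to the new strand, had 3 probe-sets. For 1422946_a_at the values were 10.67, 10.57 and 10.68 at P3, 10.56, 10.34 and 10.41 in the null, and 9.62, 9.64 and 9.74 at P5. For 1435122_x_at they were 10.67, 10.63 and 10.80 at P3, 10.35, 10.36 and 10.35 in the null, and 9.65, 9.52 and 9.58 at P5. For 1447877_x_at they were 8.71, 8.87 and 8.92 at P3, 8.57, 8.60 and 8.57 in the null, and 7.99, 7.82 and 7.88 at P5. In each probe-set all null arrays were below all P3 arrays by a small step, and all P5 arrays lay far below both. Probe-sets ending in _x_at can hold probes that also match other transcripts, and probes of a gene may overlap, so the 3 are not independent readings.

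From P3 to P5 the 3 Dnmt1 probe-sets fell by 0.98, 1.12 and 0.94 (SE 0.05 to 0.07), with adjusted p-values of 0.000818, 0.00027 and 0.000818, or 1.91-fold to 2.17-fold. In the null the differences from P3 were -0.20, -0.34 and -0.25. Only 1435122_x_at fell by the test (adjusted p = 0.0334, with 0.303 and 0.163 for the others). That call was lost without any 1 null or P5 array and without P3 replicate 1 or 3. It was also lost with the 6 arrays of these groups alone, with replicate number as a block and with the prior that varied with signal. Adjusted p-values reached 0.393 over the alternatives tried. Null replicates 1 and 3 carry exactly 1 value in this probe-set, and also in 1447877_x_at. These ties narrow the spread in the null (SD 0.005 and 0.02), and the mean that follows includes both probe-sets. Averaged over its 3 probe-sets, Dnmt1 fell by 0.27 in the null (SE 0.04, adjusted p = 0.0234 over gene means). Against P5, Dnmt1 was higher in the null in all 3 probe-sets, by 0.77, 0.78 and 0.69 (adjusted p = 0.00202, 0.000849 and 0.00252). Dnmt1 in the null therefore differed from P5 beyond the spread of the arrays, and from P3 by a smaller amount.

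Hells, the remodeller, was read at 9.66, 9.92 and 9.57 at P3, 8.64, 9.22 and 9.26 in the null, and 9.09, 8.84 and 8.97 at P5 by probe-set 1417541_at. All null and all P5 arrays lay below the P3 arrays and overlapped one another, with null replicate 1 lowest of all. The differences from P3 were -0.75 for P5 (SE 0.19, adjusted p = 0.0650) and -0.68 for the null (SE 0.19, adjusted p = 0.207), and neither passed. Null replicate 1 widens the spread here: without it the P5 difference passed (adjusted p = 0.0162), and that of the null became -0.48 (adjusted p = 0.194). The null lay 0.08 above P5, with a 95% interval from -0.38 to 0.53.

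By probe-set 1430139_at, Hells had 6.89, 7.10 and 6.98 at P3, 6.45 on each of the null arrays, and 6.45, 6.45 and 6.34 at P5. The P3 arrays stood above the rest, and the values of the null and P5 nearly coincided. The signal fell by 0.58 at P5 (SE 0.06, adjusted p = 0.00249) and by 0.54 in the null (SE 0.06, adjusted p = 0.0124). The null and P5 differed by 0.04 (95% interval -0.09 to 0.17, adjusted p = 0.944). The 3 null arrays and P5 replicate 2 carry exactly 1 value, and such ties on at least 4 arrays were found in 8.32% of the 18225 probe-sets with a mean above 4. The SE of this probe-set, and the interval between the null and P5, rest on the few values that differ. Tied values cannot show that the RNA levels were equal. The call in the null was lost without null replicate 2 (adjusted p = 0.0504) and with the 6 arrays of these groups alone (adjusted p = 0.0768). It was also lost with replicate number as a block and with the prior that varied with signal (adjusted p = 0.268). That prior also ended the call at P5 (adjusted p = 0.0613). The third probe-set, 1453361_at, lay between 2.24 and 2.40 on all arrays, next to the floor. Its difference from P3 was -0.12 both in the null (adjusted p = 0.133) and at P5 (adjusted p = 0.0540), and neither passed. Averaged over its 3 probe-sets, Hells fell by 0.48 at P5 (adjusted p = 0.00774) and by 0.45 in the null (adjusted p = 0.0304 over gene means).

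**Figure D2:**
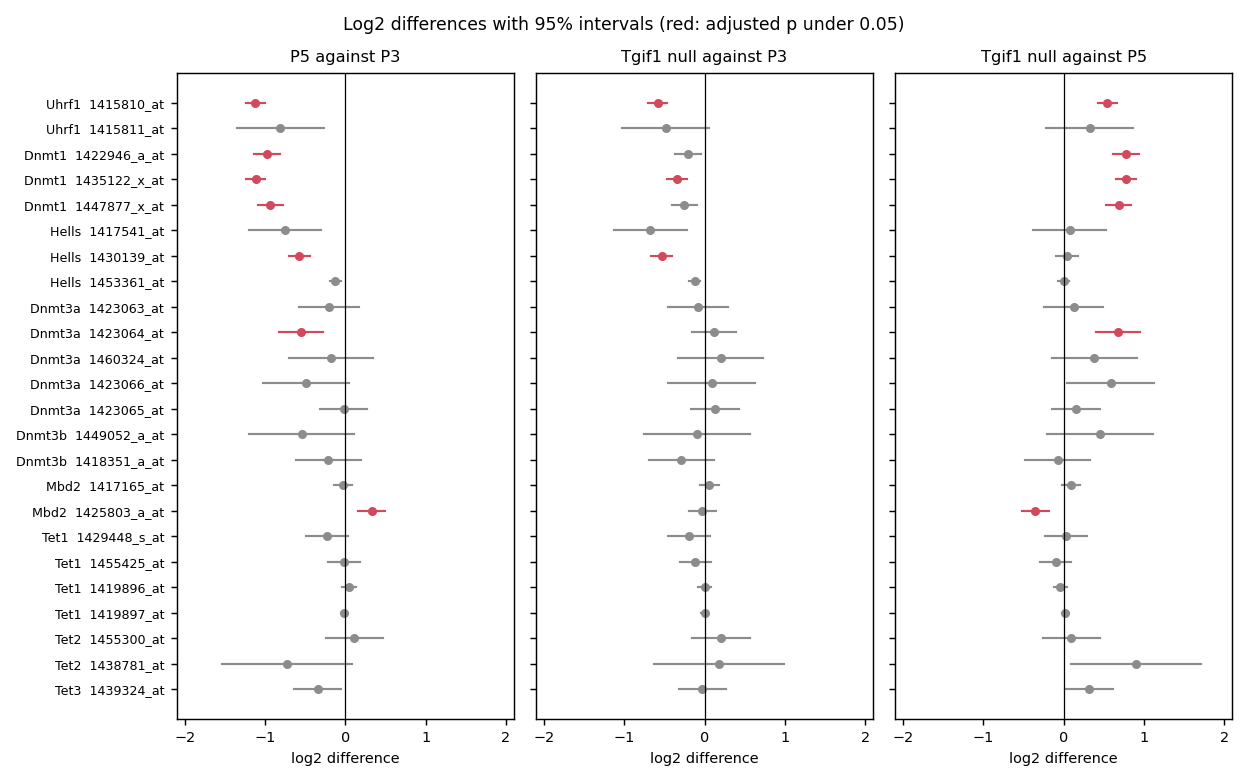
Log2 differences (x axis) of the 24 probe-sets (y axis) in the 3 comparisons, first group minus second. Points are limma estimates from 9 arrays with unadjusted 95% intervals, and red marks an adjusted p under 0.05. Uhrf1 and Dnmt1 are low at P5 and above P5 in the null, and the Hells intervals between the null and P5 include 0.

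In the comparison of the null with P3, 3 member probe-sets fell and 0 rose, where 0.692% of all 45101 probe-sets fell and 0.898% rose. The 3 belong to Uhrf1, Dnmt1 and Hells. At an unadjusted p under 0.05 from limma, 7 were lower and 0 higher. The share of all probe-sets at this unadjusted threshold is not given, here or for the lists below. Such counts are therefore not set against a background rate. All null arrays lay below all P3 arrays in 7 of the 24, where this held for 5.31% of all probe-sets. Dim probe-sets seldom pass, so the counts above a mean of 4 are given too. There 3 of 15 members fell beside 291 of 18225 probe-sets, and the separation held for 6 of 15 beside 2180 of 18225. Both counts of 7 include Hells 1453361_at, which lies next to the floor. This count of 3 rests on the fit used: it was 0 with the 6 arrays alone, 1 without null replicate 2, and 2 to 3 without each of the other arrays. In the direct comparison of the null with P5, 5 member probe-sets were higher in the null (3 of Dnmt1, 1 of Uhrf1, 1 of Dnmt3a). Another 1, of Mbd2, was lower. Of all probe-sets, 3.58% were higher and 3.65% lower. With a mean above 4, 5 of 15 members were higher beside 1550 of 18225 probe-sets, and 1 was lower beside 1476. The comparisons with P3 share the P3 arrays, so they are not independent of one another.

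The de novo methyltransferases moved less. Dnmt3a probe-set 1423064_at was read at 6.61, 6.51 and 6.53 at P3, 6.83, 6.50 and 6.68 in the null, and 5.80, 6.06 and 6.14 at P5. The P5 arrays lay below all others, and the null overlapped P3. The signal fell by 0.55 at P5 (SE 0.11, adjusted p = 0.0343) and was 0.67 higher in the null than at P5 (SE 0.11, adjusted p = 0.0203), while the null differed from P3 by 0.12 (adjusted p = 0.851). Leaving out any P3 array, P5 replicate 1 or 2, or null replicate 3 ended the call at P5. Leaving out null replicate 1 or 3 or P5 replicate 2 ended that of the null against P5. Both calls were also lost with the 6 arrays compared alone, with replicate number as a block and with the prior that varied with signal.

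The other Dnmt3a probe-sets did not pass in any comparison. By 1423063_at Dnmt3a lay between 6.40 and 6.87 on the 9 arrays, with groups that overlapped. By 1460324_at it lay between 5.79 and 6.82, and by 1423066_at between 5.22 and 6.43, with P5 differences of -0.18 (adjusted p = 0.869) and -0.49 (adjusted p = 0.324). Probe-set 1423065_at was at or near 3.13 on most arrays and up to 3.59, close to background. Averaged over all its probe-sets, Dnmt3a was 0.38 higher in the null than at P5 (SE 0.09, limma adjusted p = 0.0453 over gene means). By that average the difference of P5 from P3 was -0.29 (SE 0.09, adjusted p = 0.0981), which did not pass. Where in the gene each probe-set lies was not checked, so these differences between probe-sets were not followed further.

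Dnmt3b, which acts mainly in the early embryo, was dim. Probe-set 1449052_a_at was read at 4.56, 4.76 and 4.07 at P3, 4.92, 4.13 and 4.07 in the null, and 3.92, 3.85 and 3.999 at P5. All P5 arrays were lowest, but the P5 difference of -0.55 (SE 0.27, 95% interval -1.20 to 0.11) did not pass (adjusted p = 0.385). The other probe-set, 1418351_a_at, lay between 2.35 and 3.16.

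The Tet dioxygenases gave no call in any comparison, and most of their probe-sets were too dim to show a decrease. All 4 Tet1 probe-sets stayed between 2.23 and 2.95 on all arrays, and the Tet3 probe-set between 2.25 and 2.91. Tet2 was read above 4 on every array by 1455300_at, at 4.82, 4.82 and 4.71 at P3, 4.66, 5.10 and 5.21 in the null, and 4.83, 4.82 and 5.03 at P5, with overlapping groups. By 1438781_at Tet2 was 4.50, 4.01 and 3.66 at P3, 4.78, 3.95 and 3.97 in the null, and 3.41, 2.93 and 3.65 at P5. Here the P5 arrays were lowest, with a difference from P3 of -0.72 (SE 0.33, adjusted p = 0.331) and a null to P5 difference of 0.90 (SE 0.33, adjusted p = 0.223), neither of which passed.

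Mbd2, the reader, was high on all arrays by 1417165_at, between 9.71 and 9.89, and its differences were at most 0.09 in size (95% interval of P5 against P3 from -0.15 to 0.09). By 1425803_a_at it was 8.13, 8.15 and 8.01 at P3, 8.17, 7.95 and 8.10 in the null, and 8.39, 8.38 and 8.51 at P5, with all P5 arrays highest. That signal rose by 0.33 at P5 (SE 0.07, adjusted p = 0.0391) and the null differed from P5 by -0.36 (SE 0.07, adjusted p = 0.0337). The 2 probe-sets thus disagree on passage, and a probe-set ending in _a_at can read several transcripts of the gene. The P5 call was lost without null replicate 3, any P3 array or any P5 array. That of the null against P5 was lost without null replicate 2 or 3, P3 replicate 1 or 2, or any P5 array. Both were also lost with the 6 arrays compared alone, with replicate number as a block and with the prior that varied with signal.

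The partners of maintenance methylation also fell at P5 in part. These are 19 measured genes, the brightest probe-set of each, that work with Uhrf1 and Dnmt1 at the replication fork or in heterochromatin, and 9 fell and 0 rose, with a median log2 difference of -0.42 beside 0 over all 18194 genes. By the same choice of probe-set, 7.11% of all genes fell and 6.13% rose at P5, 1.07% fell and 1.51% rose in the null against P3, and 5.33% were lower and 6.08% higher in the null than at P5. At an unadjusted p under 0.05 from limma, 10 of the 19 were lower and 0 higher at P5. Lig1, the ligase that joins new DNA strands, fell by 1.01 (SE 0.06, adjusted p = 0.000545). Usp7, which protects Uhrf1 and Dnmt1 from degradation, fell by 0.64 (SE 0.04, adjusted p = 0.000848), and Trim28, a corepressor of retroelements, by 0.68 (SE 0.07, adjusted p = 0.00332). Pcna, the clamp that tethers Dnmt1 to replicating DNA, fell by 0.46 (SE 0.05, adjusted p = 0.00373). In the null, only Lig1 fell among the 19 (by 0.53, SE 0.06, adjusted p = 0.0154), with a list median of -0.23, and that count was 0 without P3 replicate 1, 2 without P3 replicate 2 and 3 without null replicate 1.

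Against P5, 4 of the partners were higher in the null: Usp7 by 0.44 (adjusted p = 0.00316), Lig1 by 0.48 (adjusted p = 0.00641), Trim28 by 0.39 (adjusted p = 0.0255) and Cbx5, a heterochromatin protein, by 0.39 (adjusted p = 0.0283). That count was 2 without P3 replicate 1 or P5 replicate 1 or 2. Uhrf2, the paralog of Uhrf1, passed in no comparison, with differences from P3 of -0.19 at P5 (adjusted p = 0.625) and 0.07 in the null (adjusted p = 1). Uhrf2 lies outside the rule for named genes and was chosen after its values were seen.

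Among 9 measured partners of de novo methylation, 4 fell at P5 and 0 rose (median -0.33). Ezh2, the methyltransferase of H3K27, fell by 0.76 (SE 0.06, adjusted p = 0.00102), and Nsd1, which makes the H3K36 mark that guides Dnmt3a, by 0.49 (SE 0.07, adjusted p = 0.00888). In the null 0 of these passed in limma in either direction (median -0.19), with 3 lower and 0 higher at an unadjusted p under 0.05, and Ezh2 was 0.54 higher in the null than at P5 (SE 0.06, adjusted p = 0.00341). At P5 the count was 2 without P3 replicate 1 or 3 or P5 replicate 1 or 2.

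Of 18 measured methyl-CpG readers and NuRD subunits, 3 fell and 1 rose at P5 (median -0.15). Zbtb4, a zinc finger protein that binds methylated CpG and represses transcription, rose by 1.12 (SE 0.09, adjusted p = 0.00118), from 7.61 to 8.73. In the null it was 7.74, a difference from P5 of -0.99 (SE 0.09, adjusted p = 0.00208). Cdk2ap1 (by 0.53), Rbbp4 (by 0.40) and Chd3 (by 0.57), all linked to NuRD, fell at P5, with adjusted p-values of 0.000683, 0.0165 and 0.0216. In the null 1 reader rose, Mbd6 (0.74, SE 0.11, adjusted p = 0.0345), from a low level of 4.46. The P5 total of 4 became 2 without P3 replicate 1 or P5 replicate 1 or 2 and 7 without P3 replicate 2, and the null total of 1 became 0 without any 1 array other than null replicate 1, and 2 without that one.

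Among 18 measured partners of demethylation, 2 fell at P5, the base excision repair genes Parp1 (by 0.82, SE 0.11, adjusted p = 0.00913) and Xrcc1 (by 0.78, SE 0.16, adjusted p = 0.0358), and the median was -0.01. At an unadjusted p under 0.05 from limma, 5 were lower and 1 higher at P5, and 5 lower and 2 higher in the null against P3. In the null 1 rose, Gadd45a (0.62, SE 0.10, adjusted p = 0.0469), a stress-induced gene, and this was lost on leaving out any 1 of the 9 arrays. Between the null and P5, 0 of the 18 passed in limma, with 2 higher and 1 lower at an unadjusted p under 0.05. The P5 count was 1 without null replicate 2, P3 replicate 1 or 3, or any P5 array.

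Methyl donors come from the folate and methionine cycles, and of 17 measured genes 5 fell and 1 rose at P5. Shmt1, which feeds serine carbon into folate, fell by 0.77 at P5 (SE 0.09, adjusted p = 0.00458) and by 0.66 in the null (SE 0.09, adjusted p = 0.0251). Ahcy, which clears the inhibitor left by every methyl transfer, fell by 0.60 at P5 (SE 0.10, adjusted p = 0.0146). Nnmt, which uses methyl groups on nicotinamide, rose by 0.74 in the null (SE 0.11, adjusted p = 0.0319). The P5 total of 6 became 2 without P3 replicate 1 or 3 or P5 replicate 1, and 3 without P5 replicate 2. The null total of 2 became 0 without any 1 array other than P3 replicate 2.

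A list of 19 genes, most of them of the germline, that are known to be kept silent by promoter methylation was also described. None had a mean above 4, and 0 of the 19 passed in limma in any of the 3 comparisons, also at an unadjusted p under 0.05 (0 of 19 in each), with medians of 0. Brdt, a testis bromodomain gene, was 3.37 at P3, 3.53 in the null and 3.37 at P5. No rise was detectable above background in these genes, and DNA methylation itself was not measured.

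The genes of cell division fell as well. Of 29 measured S phase and replication genes, 24 fell and 0 rose at P5 (median -0.83), and 18 of 19 mitosis genes fell (median -0.80). In the null 4 of 29 and 4 of 19 fell, with medians of -0.33 and -0.35. The counts in the null were 1 of 29 without null replicate 2 or 3 or P3 replicate 1, and 2 of 29 without P5 replicate 2. They were 0 of 19 without P3 replicate 1, 1 of 19 without null replicate 2 or P5 replicate 1, and 2 of 19 without null replicate 3, P3 replicate 3 or P5 replicate 2. At an unadjusted p under 0.05 from limma, 26 of 29 were lower and 0 higher at P5, and 17 of 29 were lower and 0 higher in the null. Mcm5, a subunit of the replicative helicase, fell by 1.16 at P5 (SE 0.05, adjusted p = 0.000219) and by 0.55 in the null (SE 0.05, adjusted p = 0.00821). The part of the cell cycle in the levels of Uhrf1, Dnmt1 and Hells was not tested. In bulk cultures, fewer cells of a kind and less RNA per cell cannot be told apart.

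**Figure D3:**
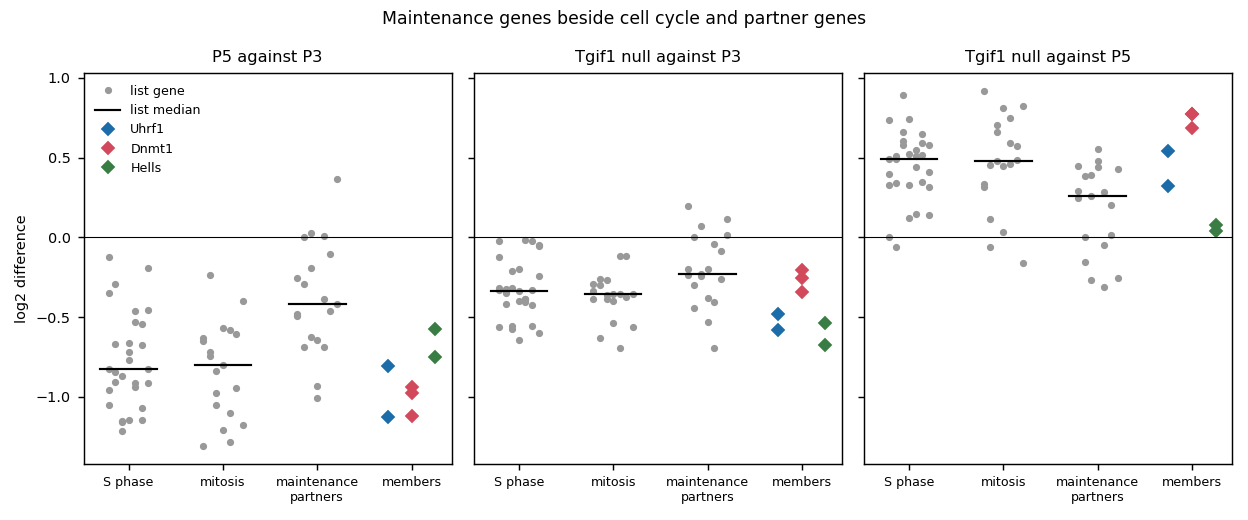
Log2 differences (y axis) by list (x axis) in the 3 comparisons. Grey points are list genes, each by its brightest probe-set, black lines list medians, and diamonds all probe-sets of Uhrf1, Dnmt1 and Hells with a mean above 4. In the null the S phase genes run from -0.64 to -0.02, and the Dnmt1 diamonds from -0.34 to -0.20 lie on both sides of their median of -0.33.

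Set against the 29 S phase genes, the maintenance genes took places that depended in part on the probe-set. At P5, 5 S phase genes had a lower log2 difference than Uhrf1 by 1415810_at and 16 by 1415811_at. For Dnmt1, between 5 and 8 were lower by its 3 probe-sets, and for Hells 17 were lower by 1417541_at and 21 by 1430139_at. In the null against P3, 2 were lower than Uhrf1 by 1415810_at and 6 by 1415811_at. For Dnmt1, 22 were lower by 1422946_a_at and 20 by 1447877_x_at, but 13 by 1435122_x_at, the one that passed the test. For Hells, 0 were lower by 1417541_at, whose difference did not pass, and 6 by 1430139_at, whose difference did. These ranks describe the arrays and were not tested.

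Array by array, the shift of each probe-set from its P3 mean can be set beside the S phase median on that array. On null replicates 1, 2 and 3 the S phase median shifted by -0.21, -0.42 and -0.38, and on the P5 arrays by -0.82, -0.86 and -0.74. Both Uhrf1 probe-sets lay below the S phase median on all 3 null arrays, by 1415810_at with shifts of -0.53, -0.54 and -0.68. Both Hells probe-sets above 4 lay below it there too, with -1.08, -0.50 and -0.46 by 1417541_at and -0.54 on each array by 1430139_at. The large shift on null replicate 1 was thus seen in 1 of the 2 Hells probe-sets.

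Dnmt1 was above the S phase median on null replicates 2 and 3 by all 3 probe-sets, and on null replicate 1 the probe-sets disagreed. There 1422946_a_at shifted by -0.08, above the median, and 1435122_x_at by -0.35 and 1447877_x_at by -0.26, both below it. At P5 all 3 Dnmt1 probe-sets and Uhrf1 by 1415810_at lay below the S phase median on every array, and Uhrf1 by 1415811_at on 1 of 3. Hells lay below it on 2 of 3 P5 arrays by 1417541_at and on 0 of 3 by 1430139_at.

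**Figure D4:**
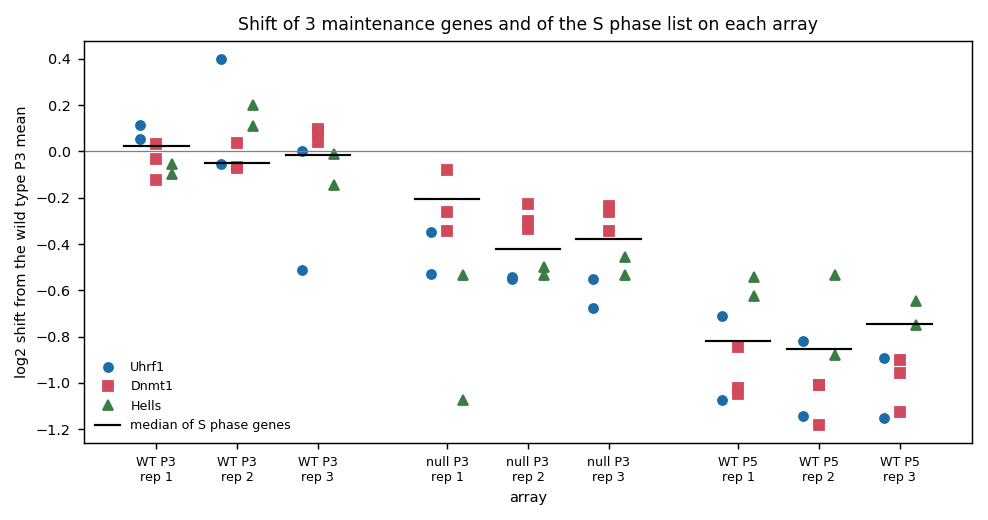
Shift of the log2 signal from the wild type P3 mean (y axis) on each array (x axis). Points are all probe-sets of Uhrf1, Dnmt1 and Hells with a mean above 4, and black bars the median of 29 S phase genes. On the null arrays Uhrf1 and Hells lie below the S phase bar, and the Dnmt1 probe-sets lie on both sides of it on replicate 1.

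The genes whose patterns were most like Uhrf1, by the root mean square difference of centred log2 signals over the 9 arrays, were H2az1 (0.0482), Mcm5 (0.0668), Lig1 (0.0869), Ska1 (0.0881) and Exo1 (0.0905). H2az1, a histone variant, was 12.66 at P3, 12.16 in the null and 11.60 at P5, the same midway place as Uhrf1. The genes most like Dnmt1 were Nt5dc2 (0.0579), Fndc4 (0.0652), Birc5 (0.0687), Cand2 (0.0859) and Atad5 (0.0864). Birc5, the survivin gene of dividing cells, was 12.28 at P3, 12.02 in the null and 11.31 at P5. Likeness over these arrays is a description of 9 values in 3 groups.

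Markers of cell types moved as well, those of macrophages and striated muscle in the null and some of other lists with passage. Of 10 epithelial and mesothelial and 10 endothelial markers, 0 passed in limma in the null against P3, with medians of 0. Only 4 and 3 of these had a mean above 4. Of 12 macrophage markers 1 rose in the null against P3, Ctss (by 1.89, adjusted p = 0.00977), and 9 were higher and 0 lower at an unadjusted p under 0.05 (list median 1.02). Csf1r, the receptor of the lineage, differed by 1.75 (adjusted p = 0.0808) and C1qa by 1.68 (adjusted p = 0.0592). The summed linear signal of the list was 838 to 1330 on the null arrays, 525.8 to 571 at P3 and 381.7 to 449.3 at P5. Lyz2, the macrophage marker with the highest signal, weighs most in these sums, and its difference of 0.58 in the null from P3 did not pass (adjusted p = 0.144). Ptprc and Adgre1, also on this list, were dim, between 2.24 and 2.98 in all group means.

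Of 12 striated muscle markers 8 rose in the null, 11 were higher and 0 lower at an unadjusted p under 0.05 (list median 2.01), and the sums were 4426 to 6088 against 2288 to 2337 at P3. Myog, a myogenic transcription factor, rose from 3.54 to 5.72 (adjusted p = 0.0103), while Myod1, another, was at the lowest value in all groups. At P5 the muscle sum was 4417 to 5364 through Acta1 (12.17), while 6 of the 12 fell. The median shifts on null replicates 1, 2 and 3 were 1.77, 0.80 and 0.86 for the macrophage list. For the muscle list they were 2.41, 1.67 and 1.92, so both list medians were raised on all null arrays. Whether cells of these kinds were present was not measured. The part of cell types in the differences of the null and of P5 was not tested.

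Genes of quiescence and senescence changed in both directions with passage. Of 19 measured, 8 rose and 3 fell at P5 (median 0.34). Cdkn2a, the p16 and p19 locus, rose by 1.94 (SE 0.09, adjusted p = 0.000349). The 3 that fell were Cdkn1c, the p57 inhibitor of cyclin-dependent kinases, by 2.27 (SE 0.16, adjusted p = 0.000972), Lmnb1, a nuclear lamin, by 1.14 (SE 0.11, adjusted p = 0.00217), and Cdkn2d, the p19 INK4d inhibitor, by 0.61 (SE 0.10, adjusted p = 0.0154), the last named after its values were seen. In the null 0 rose and 1 fell, Gas1 (by 1.07, SE 0.15, adjusted p = 0.0299), with 5 higher and 3 lower at an unadjusted p under 0.05 from limma. The count of 1 became 0 without any 1 array other than null replicate 1 or P3 replicate 2. Cdkn2a was 9.67 in the null and 9.73 at P3, and the null differed from P5 by -1.99 (SE 0.09, adjusted p = 0.000319).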

How the data were processed

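The authors hybridised RNA (5 ug) to Affymetrix MOE430 2.0 arrays, 1 per independent culture, and deposited log2 signals made with GCRMA, which models background from probe sequence, normalizes by quantiles and gives 1 value for each probe-set. The submitters' processing notes name GCRMA and limma without versions. No further normalization was applied to the log2 values the authors deposited. GCRMA compresses dim signals, so differences near 2.23 understate change.

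Symbols came from a platform annotation and were checked by gene number against GRCm38.p6, which changed none (204 were not found there): 34958 probe-sets had 1 symbol, 932 several and 9211 were not named. Group means were fitted with limma 3.58.1 in R 4.3.3 (MASS 7.3.60.0.1 for robust regression), checked on simulated data. limma's prior weighed 0.345 degrees of freedom against 6 residual ones, so each probe-set is judged mostly by its own spread. Groups follow the labels. Precision is set by 3 arrays a group, and errors reflect differences among cultures.

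The genes and lists were chosen with earlier results of these data known, so lists are described by counts and medians only. Named genes are all member probe-sets, Tgif1, up to 4 genes of smallest p per list and comparison (a called gene may be left unnamed), and the 5 most like Uhrf1 and Dnmt1. The alternatives are a filter on probe-sets above 4 or 6 on 3 arrays, a trended robust prior, quantile or median scaling, replicate number as a block, fits of only the 6 arrays compared, gene means, robust regression, an F test p under 0.0001 with a log2 difference of at least 0.5, and each array left out. The authors' quantitative PCR and protein data were not analysed here.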

Additional observations from a re-analysis of the deposited data

How the results depend on the processing

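Of 1236 alternative values over 72 probe-set comparisons, 1132 kept direction and call, 58 lost a call, 21 gained one and 25 changed sign, none of the latter in a called comparison. The falls of Uhrf1 (1415810_at) and of all Dnmt1 probe-sets from P3 to P5, and their higher level in the null than at P5, were called in all 17 alternative fits of single probe-sets, but as a mean of its probe-sets Uhrf1 did not pass in the null against P5 (adjusted p = 0.0586). For P5 against P3, the 7 calls became 4 with the trended robust prior, 3 of 9 genes by gene means and 11 by robust regression, and 5 to 8 without an array. For the null against P3, the 3 calls became 0 with the trended robust prior, 0 with the 6 arrays alone, 7 by robust regression and 1 to 3 without an array. For the null against P5, the 6 calls became 2 by gene means and 4 to 6 without an array. Over all probe-sets, P5 against P3 gave 3889 calls, with 6035 at the filter of 4, 1297 with the trended robust prior, 9469 by robust regression, 674 by the F test and 2076 to 4161 without an array. The null against P3 gave 717, with 1563 and 1474 at the filters of 4 and 6, 59 with the trended robust prior, 1137 after median centring, 123 with the 6 arrays, 5460 by robust regression, 256 by the F test and 255 to 659 without an array. The null against P5 gave 3258, with 5246 at the filter of 4, 1071 with the trended robust prior, 2025 with the 6 arrays, 8715 by robust regression, 659 by the F test and 1753 to 3343 without an array. The cause of these moves was not tested.

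The sign changes lie in 14 uncalled comparisons, and 24 of the 25 come from leaving out an array. Over those fits, the null against P3 ranged from -0.1668 to 0.0273 (Dnmt3a 1423063_at), -0.0463 to 0.395 (1460324_at), -0.0564 to 0.2011 (1423066_at), -0.0229 to 0.2067 (1423065_at), -0.3649 to 0.0571 (Dnmt3b 1449052_a_at), -0.0743 to 0.0349 (Mbd2 1425803_a_at), -0.0161 to 0.0163 (Tet1 1419897_at, also -0.0034 after median centring), -0.097 to 0.3957 (Tet2 1438781_at) and -0.1018 to 0.03 (Tet3). The null against P5 ranged from -0.0354 to 0.2747 (Hells 1417541_at), -0.0012 to 0.0449 (Tet1 1429448_s_at) and -0.0158 to 0.2626 (Tet2 1455300_at), and P5 against P3 from -0.0751 to 0.0047 (Mbd2 1417165_at) and -0.0754 to 0.0567 (Tet1 1455425_at).

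For arrays with 1 replicate number, the correlations of their deviations were between -0.491 and 0.395 over 9 pairs, beside -0.614 to 0.625 over 18 pairs of unlike numbers. Between wild type P3 and P5 they were -0.05, 0.16 and 0.14 for like numbers, and from -0.17 to 0.10 for unlike ones. Deviations were taken within groups of 3 arrays, so these values cannot show whether the cultures were paired. With the replicate block, the member calls were 5, 1 and 4 for P5 against P3, the null against P3 and the null against P5, and all calls were 2247, 141 and 1763.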
